A study of Mus musculus with 12 samples.

Results

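Perlecan (Hspg2), agrin (Agrn) and collagen XVIII (Col18a1) are heparan sulfate proteoglycans that cells secrete into basement membranes. They were examined together with 7 further mouse genes: the basement membrane proteins nephronectin (Npnt) and Tinagl1, the syndecans Sdc1, Sdc2 and Sdc4, and the glypicans Gpc1 and Gpc4. The genes were chosen by symbol, with earlier results of these data known. Each of the 10 symbols matched 1 Ensembl gene among the 55487 in the deposited count table, and all 10 passed the filter on low counts.

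The data are 12 mRNA sequencing libraries of MPC5, an immortalized mouse podocyte line that the labels give as wild type. The 6 SPARCoe libraries came from cells transfected with a plasmid for overexpression of Sparc, a secreted protein that binds collagen in the matrix. The 6 vector libraries came from cells transfected with the empty plasmid. All cells were profiled 24 hours after transfection, and the labels give the same medium for both groups. The share of cells that took up a plasmid is not given in the labels. All libraries come from 1 cell line.

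Heparan sulfate proteoglycans carry long sulfated sugar chains on a core protein. The chains bind growth factors, and the secreted core proteins bind laminin and cell surface receptors. Podocytes help to lay down the basement membrane that filters blood in the glomerulus, and agrin is a major proteoglycan of that membrane. Syndecans cross the plasma membrane, whereas glypicans are held on its outer face by a lipid anchor.

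Libraries held 34927871 to 47380987 counts in SPARCoe cells and 33051035 to 47296258 counts in vector cells. Sparc averaged 10119.7 ± 260.5 CPM in SPARCoe cells and 751.1 ± 11.2 CPM in vector cells (SD, n = 6 each), where CPM means the count scaled to library size (edgeR's CPM with TMM factors). A principal component with 45.2% of the variance of log2 CPM separated the groups, and the next, with 7.34%, set vector replicate 4 apart. The podocyte genes Nphs1 and Wt1 were near the limit of detection, with 53 and 20 counts over the SPARCoe libraries and 0 and 37 counts over the vector libraries. The 8 podocyte markers summed to 480.4 to 501.6 CPM in SPARCoe cells and 543.2 to 573.6 CPM in vector cells. Of the 4 podocyte markers that could be tested, 2 rose and 2 fell. The 8 tubule markers summed to 320.9 to 336.2 CPM in SPARCoe cells and 420.2 to 433.8 CPM in vector cells, and 3 of the 4 tested fell. The 6 mesangial or fibroblast markers summed to 40.8 to 45.7 CPM in SPARCoe cells and 48.3 to 56.2 CPM in vector cells, and 2 of the 6 tested fell. The endothelial markers summed to 1.74 to 3.31 CPM in SPARCoe cells and 1.94 to 2.93 CPM in vector cells, and the leukocyte markers to 18.8 to 20.9 CPM and 17.9 to 22.1 CPM in the same groups. The podocyte, tubule and mesangial or fibroblast sums were lower in SPARCoe cells without overlap, as were 5 of the 10 genes, and their part in the results below was not tested.

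The start regions of 5 of the genes are printed because these include genes that fell in SPARCoe cells (Hspg2, Agrn, Tinagl1) and genes that did not pass the test (Sdc1, Sdc4). RefSeq windows (GRCm38.p6) of the 250 bases before a listed start were at hand for 8 of the 10 genes, as 12 windows. Sdc2 and Gpc1 had none. Capitals mark the GC box, the letters GGGCGG on either strand, so CCGCCC also stands in capitals. Each line runs 5' to 3' on the gene's strand and leaves out bases that GENCODE M21 places in an exon. The stretches are chr4:137468553-137468768 on the plus strand for Hspg2, chr4:156197489-156197738 on the minus strand for Agrn, chr4:130175123-130175372 on the minus strand for Tinagl1, chr12:8771146-8771322 on the plus strand for Sdc1 and chr2:164443189-164443438 on the minus strand for Sdc4.
Hspg2: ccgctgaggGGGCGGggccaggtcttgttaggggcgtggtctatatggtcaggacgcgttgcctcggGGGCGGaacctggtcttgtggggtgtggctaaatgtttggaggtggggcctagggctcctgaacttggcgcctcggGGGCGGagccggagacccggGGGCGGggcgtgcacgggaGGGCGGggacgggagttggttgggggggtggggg
Agrn: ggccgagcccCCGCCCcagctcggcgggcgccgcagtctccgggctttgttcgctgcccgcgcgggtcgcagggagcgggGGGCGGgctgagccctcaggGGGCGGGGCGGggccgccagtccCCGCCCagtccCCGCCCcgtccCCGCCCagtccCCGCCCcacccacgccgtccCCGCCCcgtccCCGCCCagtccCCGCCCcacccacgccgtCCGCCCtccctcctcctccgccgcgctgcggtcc
Tinagl1: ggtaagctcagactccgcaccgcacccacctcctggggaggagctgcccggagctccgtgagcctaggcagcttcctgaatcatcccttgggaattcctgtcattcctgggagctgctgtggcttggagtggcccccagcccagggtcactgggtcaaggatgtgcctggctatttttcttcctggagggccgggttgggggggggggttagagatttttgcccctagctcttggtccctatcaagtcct
Sdc1: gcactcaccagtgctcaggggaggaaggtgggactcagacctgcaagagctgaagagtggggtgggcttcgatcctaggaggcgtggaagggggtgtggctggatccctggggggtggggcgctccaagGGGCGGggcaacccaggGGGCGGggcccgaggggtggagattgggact
Sdc4: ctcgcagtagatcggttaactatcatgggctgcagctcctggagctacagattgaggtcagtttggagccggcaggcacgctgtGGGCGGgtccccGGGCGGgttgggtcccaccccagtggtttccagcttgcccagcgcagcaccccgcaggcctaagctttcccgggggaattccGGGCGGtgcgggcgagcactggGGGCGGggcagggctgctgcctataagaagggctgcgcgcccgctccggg
The Agrn stretch held 12 GC boxes, the Hspg2 stretch 5, the Sdc4 stretch 4 and the Sdc1 stretch 2. The Tinagl1 stretch held 0, but the other Tinagl1 window, chr4:130174803-130175052, which overlaps an exon in M21 and is not printed, held 4. The other Agrn window, chr4:156186260-156186509, held 2. By M21, that window, the Sdc4 stretch and some further windows of the 12 lie inside their genes and not before them. The letters were thus present both in genes that fell and in genes that did not pass the test. Over whole windows, 9 of the 12 held a GC box, against 32.7% of 32851 windows in the table, and the median GC content was 67.0% against 52.4%. The TATA box letters TATAAA were in 0 of the 12 windows and in 12.4% of all windows. The TEAD letters GGAATG were in 3 of the 12 and in 12.6% of all, and the AP-1 letters TGANTCA were in 1 of the 12 and in 6.75% of all. The E-box letters CACGTG were in 0 of the 12 and in 6.02% of all. Motifs were searched on both strands, and a match describes only the letters of these windows.

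Of the 10 genes, 8 fell in SPARCoe cells and 0 rose, at an adjusted p under 0.05 in edgeR's quasi-likelihood test with Benjamini-Hochberg adjustment over 15734 genes. Over all genes tested, 14.1% fell and 14.9% rose, but the choice of the 10 genes was not blind to these data. Falls were more frequent among abundant genes: of the 7 genes with a mean of at least 100 CPM 5 fell, against 30.2% of the 2503 genes tested at that level. The 3 genes between 10 and 100 CPM fell, against 18.3% of 6623 genes at that level. The falls were small: the change in mean CPM was -7.36% for Agrn and -18.9% for Gpc4, the 2 ends of the range. The median log2 fold change was -0.15 for the 10 genes, -0.00 for all genes tested and -0.02 for those that averaged 100 CPM or more. In 5 of the 8 genes that fell, every SPARCoe library lay below every vector library, which held for 7.04% of all genes tested and for 18.5% of those with at least 100 CPM. In bulk RNA, fewer cells that express a gene and less RNA per cell cannot be told apart. Whether the libraries of a group stem from separate cultures is not stated in the labels. The p-values therefore cover the spread between libraries alone, and that spread may be technical. Against a 1.2-fold change (glmTreat), 0 of the 10 genes passed the adjusted p, beside 0.877% of all genes tested that were lower at the same adjusted p. Of the 10, 1 had an unadjusted p under 0.05 in glmTreat, and the share of all genes at that unadjusted limit is not given here. No gene of the 10 rose at an unadjusted p under 0.05 in edgeR, and DESeq2 also gave 0 rises.

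**Figure D1:**
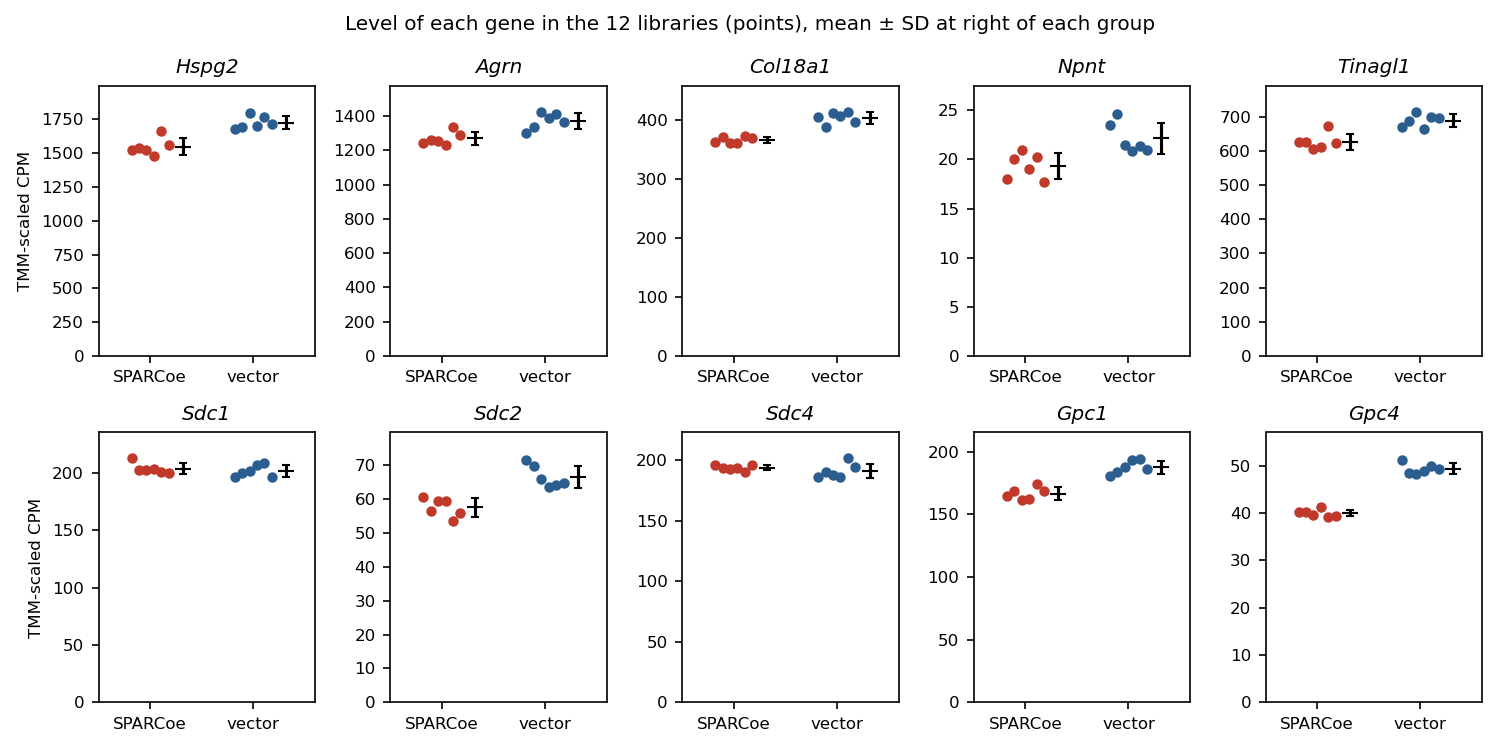
TMM-scaled CPM of each of the 10 genes (vertical axes, from 0) in the 6 SPARCoe and 6 vector libraries, with 1 point per library and the mean ± SD at the right of each group. Gpc4 lies between 39.3 and 41.2 CPM in SPARCoe libraries, below all vector libraries, while Sdc1 and Sdc4 overlap between the groups.

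The 3 secreted proteoglycans all fell. Hspg2 encodes perlecan, a large core protein that binds laminin and collagen IV networks, and lies on the plus strand at chr4:137468769-137570630 (GENCODE M21, GRCm38). It ranged from 1476.8 to 1661.6 CPM with a median of 1531.6 in SPARCoe libraries, and from 1678.5 to 1798.7 CPM with a median of 1707.1 in vector libraries. The groups did not overlap, and SPARCoe replicate 5 was the library closest to the vector range. The log2 fold change was -0.16 ± 0.02 (SE; edgeR adjusted p = 1.64e-06).

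Agrn encodes agrin, which binds laminin and dystroglycan and, at the nerve-muscle junction, clusters acetylcholine receptors. It lies on the minus strand at chr4:156165290-156197488. Agrn ranged from 1232.9 to 1333.9 CPM with a median of 1259.8 in SPARCoe libraries, and from 1304.4 to 1423.3 CPM with a median of 1375.0 in vector libraries. The groups overlapped, with 5 of 6 SPARCoe libraries below the lowest vector library. The log2 fold change was -0.11 ± 0.02 (SE; edgeR adjusted p = 3.49e-05), the smallest of the 8 falls.

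Col18a1 encodes the collagen XVIII chain, whose C-terminal fragment is endostatin, and lies on the minus strand at chr10:77052178-77166548. It ranged from 359.9 to 371.3 CPM with a median of 364.9 in SPARCoe libraries, and from 387.3 to 412.6 CPM with a median of 404.8 in vector libraries. The groups did not overlap. The log2 fold change was -0.14 ± 0.02 (SE; edgeR adjusted p = 1.35e-07). The gene overlaps Slc19a1 on the other strand, which averaged 45.4 CPM in SPARCoe cells and 42.6 CPM in vector cells, and the strand setting of the counting is not given, so reads in the overlap cannot be assigned. Summed, Hspg2, Agrn and Col18a1 gave 3182.7 ± 102.5 CPM in SPARCoe cells and 3500.0 ± 96.6 CPM in vector cells (SD, n = 6 each).

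Both basement membrane ligands fell. Npnt encodes nephronectin, a matrix ligand of integrin alpha8 beta1 needed for kidney development in mice, and lies on the minus strand at chr3:132881745-132950291. It ranged from 17.7 to 20.9 CPM with a median of 19.5 in SPARCoe libraries and from 20.9 to 24.6 CPM with a median of 21.4 in vector libraries. The groups touched at their edges, with 5 of 6 SPARCoe libraries below the lowest vector library. The log2 fold change was -0.19 ± 0.05 (SE; edgeR adjusted p = 0.00382). In limma on log2(FPKM + 1) over all genes with a value, this call was lost (adjusted p = 0.0502). The integrin alpha8 gene Itga8, named after its values were seen, had 13 counts over the SPARCoe libraries and 2 over the vector libraries and was not tested.

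Tinagl1 encodes a secreted basement membrane glycoprotein related to tubulointerstitial nephritis antigen, and lies on the minus strand at chr4:130164454-130175122. It ranged from 605.1 to 672.5 CPM with a median of 623.8 in SPARCoe libraries, and from 665.9 to 713.3 CPM with a median of 692.3 in vector libraries. The groups overlapped through SPARCoe replicate 5 alone. The log2 fold change was -0.14 ± 0.02 (SE; edgeR adjusted p = 2.02e-06). SPARCoe replicate 5 was the highest SPARCoe library for Hspg2, Agrn, Col18a1, Tinagl1 and Gpc1 and the lowest for Sdc2, Sdc4 and Gpc4. Without it, the 8 genes still fell.

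The syndecans did not move together. Sdc2, on the plus strand at chr15:32920723-33034935, ranged from 53.5 to 60.5 CPM with a median of 57.9 in SPARCoe libraries, and from 63.5 to 71.5 CPM with a median of 65.4 in vector libraries. The groups did not overlap, and the log2 fold change was -0.21 ± 0.03 (SE; edgeR adjusted p = 2.56e-06). Sdc1, the main syndecan of many epithelia, on the plus strand at chr12:8771323-8793715, ranged from 200.5 to 213.2 CPM with a median of 202.6 in SPARCoe libraries and from 196.3 to 208.4 CPM with a median of 201.3 in vector libraries. The groups overlapped, and its estimate of 0.01 ± 0.02 on the log2 scale (SE; edgeR adjusted p = 0.687) had a 95% interval of -0.03 to 0.06.

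Sdc4, a syndecan of focal adhesions, lies on the minus strand at chr2:164424247-164443887. It ranged from 190.7 to 196.2 CPM with a median of 193.7 in SPARCoe libraries and from 186.3 to 201.9 CPM with a median of 189.3 in vector libraries. The groups overlapped, and its estimate of 0.02 ± 0.02 on the log2 scale (SE; edgeR adjusted p = 0.583) had a 95% interval of -0.02 to 0.06. The ratio of Sdc1 to Sdc2 counts averaged 3.55 in SPARCoe cells (3.41 to 3.76) and 3.04 in vector cells (2.75 to 3.26). The ratio of Sdc4 to Sdc2 averaged 3.38 in SPARCoe cells (3.24 to 3.56) and 2.88 in vector cells (2.61 to 3.15). In both ratios the groups did not overlap, which also held for Sdc2 alone, so the ratios are no separate result. The fourth syndecan, Sdc3, is best known from the nervous system and rose, as given below.

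Both glypicans fell. Gpc4, on the minus strand at chrX:52053021-52165252, ranged from 39.3 to 41.2 CPM with a median of 40.0 in SPARCoe libraries, and from 48.3 to 51.3 CPM with a median of 49.1 in vector libraries. The groups stood well apart, and its estimate of -0.30 ± 0.03 on the log2 scale (SE; edgeR adjusted p = 4.48e-10) was the largest of the 8 falls. Gpc1, on the plus strand at chr1:92831645-92860779, ranged from 161.2 to 174.4 CPM with a median of 166.5 in SPARCoe libraries, and from 180.7 to 194.1 CPM with a median of 187.2 in vector libraries. The groups did not overlap, and the log2 fold change was -0.17 ± 0.02 (SE; edgeR adjusted p = 7.32e-08).

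**Figure D2:**
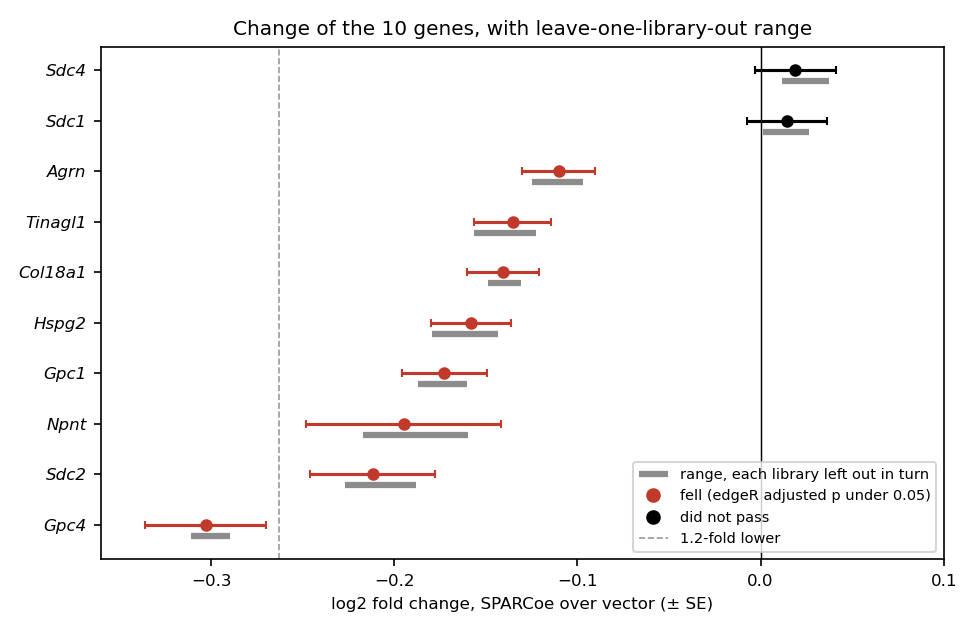
Log2 fold change of SPARCoe over vector (horizontal axis) for the 10 genes, with the SE as bars and the range over fits that leave out each library in turn as grey bands. The dashed line marks a 1.2-fold lower level, which only the estimate of Gpc4 passes, and the bands of the 8 genes that fell stay below 0.

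Levels were compared between genes per length, with the deposited FPKM. Tinagl1 was highest, at 459.0 FPKM in SPARCoe cells and 504.1 FPKM in vector cells, followed by Agrn at 236.2 and 254.9 FPKM and Hspg2 at 206.8 and 230.8 FPKM in the same groups. In vector cells, Sdc1 (138.1 FPKM) and Gpc1 (138.0 FPKM) overlapped over libraries, as did Col18a1 (119.5 FPKM) and Sdc4 (117.4 FPKM), and Sdc2 (18.9 FPKM) and Gpc4 (18.6 FPKM). Npnt was lowest, at 6.60 FPKM in SPARCoe cells and 7.56 FPKM in vector cells. The lengths behind the deposited FPKM were shorter than the merged exons of GENCODE M21 for 8 of the 10 genes, by up to 3.80 times for Gpc1. With merged exon lengths, Tinagl1, Agrn and Hspg2 held the top places in both groups, followed by Sdc4. Below Sdc4, Sdc1 stood at 53.5 and Col18a1 at 52.0 in SPARCoe cells, and Col18a1 at 57.3 and Sdc1 at 53.0 in vector cells, all on the FPKM scale. Gpc1 came after both in each group.

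**Figure D3:**
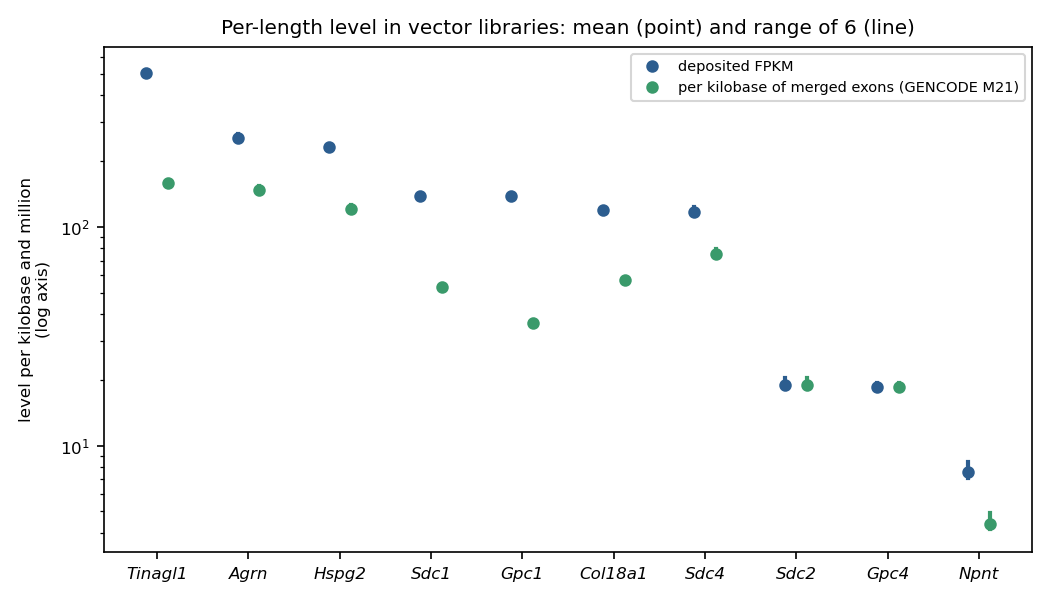
Level per length and library size (FPKM scale, log axis) of the 10 genes in the 6 vector libraries, as deposited FPKM and per kilobase of merged exons in GENCODE M21, with the mean as a point and the range as a line. Tinagl1 is highest at 504.1 FPKM and Npnt lowest at 7.56 FPKM, and Sdc1, Gpc1, Col18a1 and Sdc4 change places with the length used.

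Within the syndecan family, Sdc2 made up 5.65 ± 0.21% of the summed FPKM in SPARCoe cells and 6.63 ± 0.41% in vector cells (SD, n = 6 each). Sdc3 made up 4.61 ± 0.26% in SPARCoe cells and 3.63 ± 0.15% in vector cells. Neither share overlapped between the groups, which also held for the CPM of each of these genes. Sdc1 made up 48.4% in SPARCoe cells and 48.5% in vector cells, and Sdc4 41.3% and 41.2% in the same groups. Gpc4 made up 10.5 ± 0.39% of the glypican FPKM in SPARCoe cells and 11.4 ± 0.42% in vector cells, with no overlap, and Gpc1 made up 85.1% and 84.7%. The shares depend on the gene lengths used. With merged exon lengths Sdc4, not Sdc1, was the largest syndecan share, at 50.9% in SPARCoe cells and 50.1% in vector cells. Sdc2 then made up 10.9% in SPARCoe cells and 12.6% in vector cells, and Sdc3 2.50% and 1.94% in the same groups. Gpc4 then made up 30.1% of the glypicans in SPARCoe cells and 32.2% in vector cells, and Gpc1 64.2% and 62.9%.

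Genes that build, modify and bind heparan sulfate were counted in 9 lists of 132 genes, of which 107 could be tested: 17 rose, 30 fell and 60 did not pass, with a median log2 fold change of -0.01. Beside them, 14.9% of all genes tested rose and 14.1% fell. Falls made up 30.2% of the genes with at least 100 CPM and 18.3% of those between 10 and 100 CPM, and the lists hold genes of both levels. The lists below are small, and their counts are a description to be read beside these shares. Of the other syndecans, glypicans and relatives, 4 of 9 were tested, and only Sdc3 passed. Gpc2, Gpc6 and Smc3, named after their values were seen, did not pass, and Smc3 is neither a syndecan nor a glypican. Sdc3 averaged 22.4 ± 1.05 CPM in SPARCoe cells and 17.4 ± 0.980 CPM in vector cells (SD, n = 6 each; log2 fold change 0.37 ± 0.05 SE, edgeR adjusted p = 1.39e-07). Of the linker and chain synthesis genes, 11 of 12 were tested, 2 rose and 3 fell. The 2 subunits of the chain polymerase moved in opposite directions. Ext1 averaged 215.6 CPM in SPARCoe cells and 198.9 CPM in vector cells (log2 0.12 ± 0.02, adjusted p = 1.8e-05). Ext2 averaged 104.1 CPM in SPARCoe cells and 119.2 CPM in vector cells (log2 -0.20 ± 0.03, adjusted p = 5.27e-08). Pxylp1, a phosphatase that acts on the xylose of the linker, averaged 16.3 CPM in SPARCoe cells and 21.8 CPM in vector cells (log2 -0.42 ± 0.05, adjusted p = 9.31e-09). Xylt1, named after its values were seen, had 0 counts in all 12 libraries, where 3 counts correspond to 0.0633 to 0.0908 CPM.

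Of the chain modification genes, 12 of 18 were tested, 1 rose and 5 fell. Ndst1, which starts the sulfation of the chain, averaged 337.8 CPM in SPARCoe cells and 378.1 CPM in vector cells (log2 -0.16 ± 0.02, edgeR adjusted p = 2.63e-09). Hs2st1, a 2-O-sulfotransferase, averaged 141.1 CPM in SPARCoe cells and 156.2 CPM in vector cells (log2 -0.15 ± 0.03, adjusted p = 1.09e-05). Ndst3, a relative of Ndst1, rose by a log2 of 0.24 ± 0.06 (adjusted p = 0.00223). Of the 10 donor genes, 1 rose and 2 fell. Papss2, which makes the sulfate donor, averaged 7.12 CPM in SPARCoe cells and 10.0 CPM in vector cells (log2 -0.49 ± 0.07, adjusted p = 2.79e-07). Slc35d1, a sugar nucleotide transporter, rose by a log2 of 0.27 (adjusted p = 0.00342), and Slc35b2, a sulfate donor transporter, fell by 0.10 on the log2 scale (adjusted p = 0.0174).

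Of the breakdown genes, 9 of 11 were tested, 1 rose and 3 fell. The lysosomal sulfatases Ids and Sgsh fell by 0.21 and 0.33 on the log2 scale (edgeR adjusted p = 9.08e-06 and 0.000522), and heparanase, Hpse, rose by a log2 of 0.22 (adjusted p = 0.0043). In the chondroitin sulfate branch, 13 of 16 were tested, 2 rose and 3 fell. The sulfotransferase Chst15 averaged 10.7 CPM in SPARCoe cells and 15.6 CPM in vector cells (log2 -0.54 ± 0.06, adjusted p = 8.09e-10). Chst7 and Chst3, also sulfotransferases, rose by a log2 of 0.54 and 1.23 (adjusted p = 0.000107 and 0.00522). Chst3 averaged 0.472 CPM in SPARCoe cells and 0.196 CPM in vector cells. Genes with at least 1 count numbered 22781 to 24191 in SPARCoe libraries and 21464 to 22037 in vector libraries, and the part of this difference in the rises of scarce genes was not tested.

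Of the receptors and cytosolic partners, 15 of 17 were tested, 1 rose and 3 fell. Dag1 encodes dystroglycan, a receptor for agrin and perlecan, and averaged 293.8 ± 4.22 CPM in SPARCoe cells and 358.2 ± 5.40 CPM in vector cells (SD, n = 6 each; log2 -0.29 ± 0.02, edgeR adjusted p = 2.25e-16). Ezr, the membrane linker ezrin, fell by 0.08 on the log2 scale (adjusted p = 0.00082), and Sdcbp2, which binds syndecan tails, rose by a log2 of 0.74 (adjusted p = 0.00643). Sdcbp2 was scarce, at 1.21 CPM in SPARCoe cells and 0.719 CPM in vector cells. Sdcbp, of the same list and named after its values were seen, averaged 185.4 and 182.3 CPM in these groups. It did not pass (edgeR adjusted p = 0.469). Among shedding and release genes, 15 of 19 were tested, 4 rose and 4 fell. The membrane metalloproteinase Mmp15 averaged 16.0 ± 1.29 CPM in SPARCoe cells and 5.86 ± 0.398 CPM in vector cells (SD, n = 6 each), 2.73-fold higher (log2 1.45 ± 0.07, adjusted p = 4.63e-21). Cathepsin L, Ctsl, rose by a log2 of 0.24 (adjusted p = 1.57e-14) and urokinase, Plau, by 0.21 (adjusted p = 1.8e-08).

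Of the heparan sulfate-binding growth factors and receptors, 18 of 20 were tested, 4 rose and 7 fell, with a median log2 fold change of -0.11. Fgf7, a growth factor for epithelial cells, averaged 64.5 ± 1.21 CPM in SPARCoe cells and 34.9 ± 0.979 CPM in vector cells (SD, n = 6 each), 1.85-fold higher (log2 0.89 ± 0.03, edgeR adjusted p = 2.14e-25). Vegfa, an endothelial growth factor, rose by a log2 of 0.38 ± 0.04 (adjusted p = 2.01e-09). Pdgfb, a growth factor for mesenchymal cells, averaged 137.8 CPM in SPARCoe cells and 197.3 CPM in vector cells (log2 -0.52 ± 0.03, adjusted p = 4.28e-20).

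**Figure D4:**
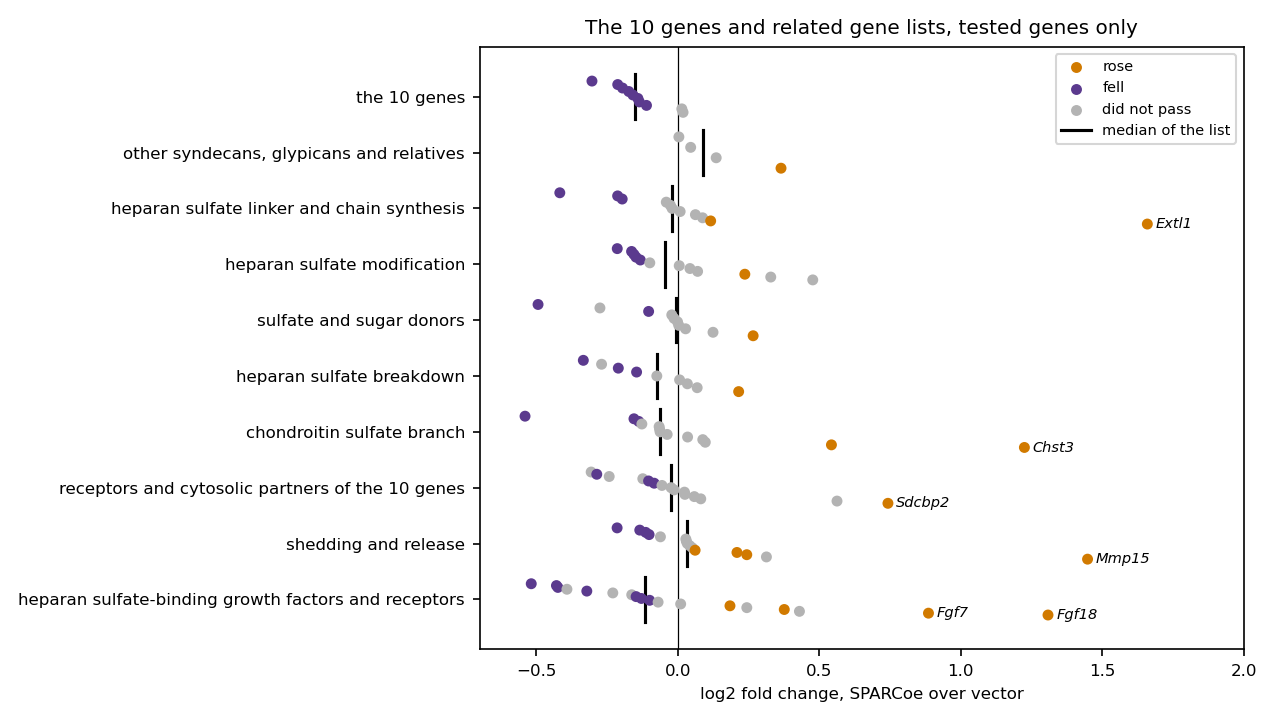
Log2 fold change of SPARCoe over vector (horizontal axis) for each tested gene of the 10 and of the 9 related lists, coloured by call, with the list median as a black bar. Most points lie near 0, and the labelled genes, all rises, stand apart at the right. They include Mmp15 at 1.45 and Fgf7 at 0.89, and Extl1 at 1.66 and Fgf18 at 1.31, both named after their values were seen. Extl1 and Fgf18 were scarce. Extl1 averaged 0.744 CPM in SPARCoe cells and 0.234 CPM in vector cells, and Fgf18 averaged 2.20 and 0.891 CPM in the same groups.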

How the data were processed

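mRNA of 12 MPC5 libraries was selected with polyT and sequenced, per the labels' protocols. The authors deposited read counts per gene and FPKM values. Bowtie2, HISAT2, featureCounts, edgeR, SAMtools and Picard are named, without version or role, in the submitters' processing notes. Not given in the sources used here are the genome build, the annotation, the strand setting and how multi-mapping reads were handled. Each deposited FPKM value equalled the count over the library total and 1 gene length (31742 genes, tolerance 0.001), and served for levels between genes.

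Deposited counts were tested with edgeR 4.0.16 in R 4.3.3 (TMM, filterByExpr, robust glmQLFit and glmQLFTest, two-sided, Benjamini-Hochberg adjusted p under 0.05) on all 12 libraries. SEs were derived from each fold change with its F value. The test was checked on simulated data. Symbols matched 55141 of 55487 IDs. The protocols name no molecular identifiers. Alternatives were other scalings and filters (among them 1 CPM in 6 libraries), Sparc left out, DESeq2 1.42.0, limma 3.58.1 (voom, and trend on log2 FPKM with pseudocounts of 1 and 0.1), a replicate block, glmTreat, and leaving out each library. Merged exon lengths were an alternative added after the data were seen. The members and lists were chosen with earlier results of these data known. Named were the 10 genes, Sparc and, from each related list, up to 3 genes past the test with the smallest adjusted p. The values of 1 marker gene are not reported here.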

Additional observations from a re-analysis of the deposited data

Results flagged for a closer look

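In 4 of 72 groups of 6 libraries, taken over the 10 genes, the named related genes and Sparc, 1 library stood far from the others by Dixon's test, and chance alone gives about 1 in 20 such groups. Tinagl1 had 672.5 CPM in SPARCoe replicate 5, where the other SPARCoe libraries reached at most 626.6 CPM. Sdc1 had 213.2 CPM in SPARCoe replicate 1, with the next at 203.3 CPM. Ext1 had 192.6 CPM in vector replicate 4, with the next lowest at 199.2 CPM. Ndst3 had 16.3 CPM in SPARCoe replicate 6, with the next at 14.3 CPM.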

How the results depend on the processing

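The count of genes that fell among the 10 was 8 in each of the 12 fits that left out 1 library and 7 or 8 under the alternatives other than glmTreat, and 0 rose in every fit. Against a 1.2-fold change (glmTreat), 992 of all genes passed (854 higher and 138 lower), against 4571 (2347 higher and 2224 lower) in edgeR's test of any change, and 0 of the 10 genes, 7 rises and 5 falls of the related lists passed. Leaving out each library gave 4276 to 4476 calls over all genes, 17 to 21 related rises and 26 to 30 related falls. Of 834 values of single genes under alternatives, 809 kept direction and call, 25 lost the call and 0 reversed. These values cover the 10 genes and 25 related genes. The related genes were named for their small adjusted p in the main fit, so most calls were likely to be kept.

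Over all genes tested, same-numbered libraries did not deviate together, with correlations of -0.01 to 0.01. The labels do not say what a shared replicate number means, so whether the libraries are paired is not known. With a replicate block, 4663 genes were called, 8 of the 10 genes fell and 0 rose, and the related lists had 18 rises and 31 falls.

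The smallest count of any of the 10 genes in a library was 693, so depth limits mainly the scarce related genes. Among gene counts of 1 or 2, 55.6% to 58.1% were 2 in each library. Why 2 was more frequent than 1 was not tested, and the small counts given here should be read with that limit. The falls were at most 1.23-fold. RLE factors, upper-quartile factors and leaving out Sparc each gave 8 falls.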
